A study of Rattus norvegicus with 22 samples.

Results

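A set of microRNAs (miRNAs) labelled glial and inflammatory was followed across all small RNA libraries of the study. They were chosen by number from their names as miR-21, miR-22, miR-142, miR-146a, miR-146b, miR-150, miR-155 and miR-223, either arm. Whether the label holds for each of them in this tissue was not tested. The rule matched 10 of the 468 distinct names in a full file, which are rno-miR-21-5p, rno-miR-22-3p, miR-21-3p, miR-22-5p, miR-142-5p, miR-142-3p, miR-146a-5p, miR-146b-5p, miR-150-5p and miR-223-3p. No value for miR-155 is analysed here. The treated animals were male Long Evans rats, an outbred pigmented strain, aged 14 weeks, given chlorpyrifos (CPF) under the skin at 10 mg/kg per day for 21 days. CPF is an organophosphate insecticide whose active metabolite blocks acetylcholinesterase, the enzyme that breaks down the transmitter acetylcholine. The controls were rats of the same strain, sex and age that received the peanut oil vehicle for 21 days. There were 11 libraries per group, from RNA of the CA1 region of the hippocampus. A cohort trained and tested for conditioned fear and an untested cohort are described, without saying which libraries belong to which. The prefix rno, for the rat, is left off below. The labels do not identify animals, so each p-value reflects how far libraries of a group differ, which may be technical.

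A miRNA is cut from a hairpin precursor. Either strand of the cut duplex, the 5p or the 3p arm, can be loaded into an Argonaute protein, where bases 2 to 8, the seed, pair with target transcripts. miR-21 is made in many cell types and is raised in reactive astrocytes and microglia after injury, with Pdcd4 among its known targets. miR-22 is made in many tissues, neurons among them. miR-146a and miR-146b are induced by NF-kappaB and dampen Toll-like receptor signalling through Traf6 and Irak1. miR-142 is largely restricted to blood-forming lineages, which include microglia, while miR-150 is abundant in lymphocytes and miR-223 in neutrophils and other myeloid cells. In whole tissue, fewer cells of a type and less RNA per cell cannot be told apart.

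The mature sequences of the names with the most reads are given first, since names with the same seed can pair with the same target sites. They are RefSeq sequences for the rat build GRCr8, in which 9 of the 10 names had an entry. miR-150-5p had none. Capitals mark the seed.
miR-22-3p: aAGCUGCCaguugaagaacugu
miR-21-5p: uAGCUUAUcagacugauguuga
miR-21-3p: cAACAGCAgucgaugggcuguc
miR-146b-5p: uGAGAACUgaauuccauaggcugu
miR-146a-5p: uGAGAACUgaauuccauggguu
miR-142-5p: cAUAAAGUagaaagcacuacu
miR-142-3p: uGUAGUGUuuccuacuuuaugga

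Of these, miR-146a-5p and miR-146b-5p shared a seed, and the other 5 seeds each stood in no other entry among the 724 mature entries of the table. The miR-146 sequences were identical over their first 17 bases. Counted from the 5′ end of miR-146a-5p, miR-146b-5p differed by G18A and U21C, and it was longer by 2 bases at the 3′ end. Reads that end before base 18 could not be assigned between them by sequence.

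The hairpins of miR-21 and miR-142 are shown because both of their arms were measured in most libraries. Capitals mark the mature arms, the 5p arm first.
Mir21: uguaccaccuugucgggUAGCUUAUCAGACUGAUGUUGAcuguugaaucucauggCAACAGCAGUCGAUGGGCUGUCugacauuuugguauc
Mir142: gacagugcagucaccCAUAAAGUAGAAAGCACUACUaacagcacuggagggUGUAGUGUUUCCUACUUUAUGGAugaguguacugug

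In GRCr8 the Mir21 hairpin lies on the minus strand at chr10:71902600-71902691 and overlaps no other gene in the RefSeq table. The Mir142 hairpin lies on the plus strand at chr10:73055104-73055190, within the span of the protein-coding gene Tspoap1. The Mir22 hairpin lies on the plus strand of the same chromosome at chr10:60805331-60805425 and overlaps no other gene. None of the hairpins of the matched names overlapped another miRNA gene. Whether the counting used strand is not given in the sources used here, so reads of a gene antisense to any hairpin could not be told apart from its own.

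Levels were deposited by the authors as RPM, the reads of a name scaled so that each library's miRNA reads have the same total. A library held 47844 to 94980 such reads, recovered from the steps between low values, so that 1 read was worth 10.5 to 20.9 RPM. All 220 values of the 10 names in the 22 libraries were whole reads to within 0.02 RPM. They summed to 13395 reads, and miR-22-3p and miR-21-5p held 85.2% of them. The 10 names together took 0.867 ± 0.0456% of RPM in CPF libraries and 0.812 ± 0.0830% in control libraries (SD, n = 11 each).

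The order of levels in RPM was steep. How evenly the libraries captured different sequences was not tested, which limits comparisons between names and between arms. Averaged over all 22 libraries, miR-22-3p stood at 4562 RPM, 25th of all names, and miR-21-5p at 2587 RPM, 34th. miR-21-3p followed at 548 RPM, miR-146b-5p at 443 RPM and miR-146a-5p at 140 RPM. The white blood cell miRNAs were far lower, with 49.9 RPM for miR-142-5p, 30.8 RPM for miR-150-5p and 26.5 RPM for miR-142-3p. The last places went to miR-22-5p at 6.18 RPM and miR-223-3p at 0.607 RPM. miR-22-3p was above miR-21-5p, and miR-21-5p above miR-21-3p, in 22 of 22 libraries, and miR-146a-5p was below miR-146b-5p and above miR-142-5p in 22 of 22. The remaining neighbours in this order were not separated in every library. miR-21-3p was above miR-146b-5p in 17 of 22, miR-142-5p above miR-150-5p in 14 of 22, and miR-150-5p above miR-142-3p in 10 of 22. miR-142-3p was above miR-22-5p in 16 of 22, and miR-22-5p above miR-223-3p in 8 of 22.

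**Figure D1:**
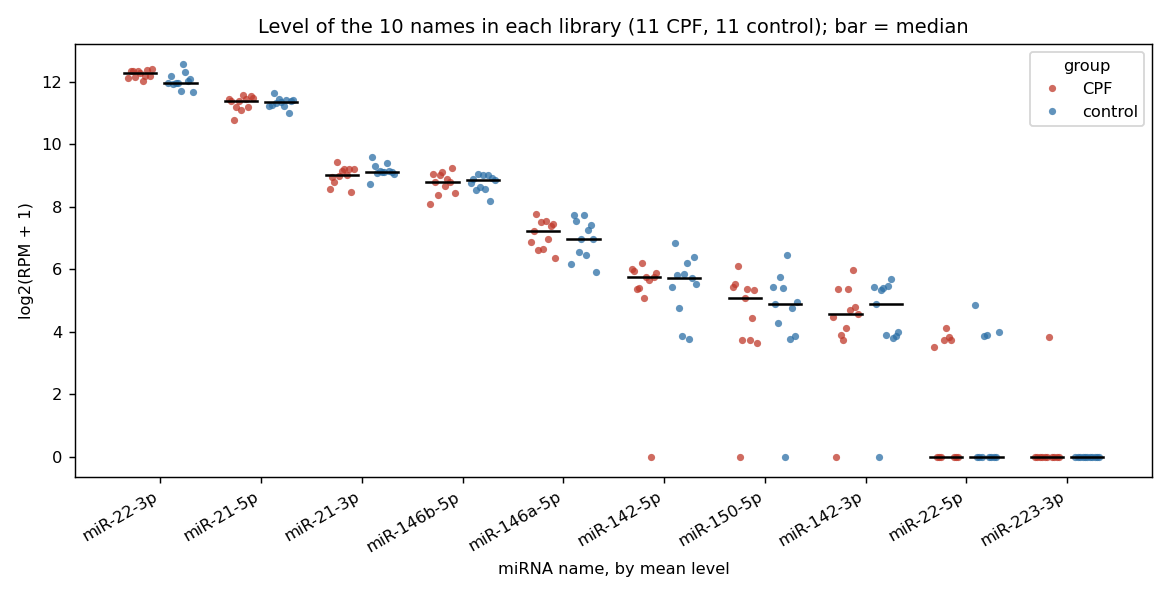
Level of each of the 10 names in every library on a log2(RPM + 1) axis, CPF left and control right, with a bar at the median of the 11 libraries of a group. The groups overlap for every name, and the names from miR-142-5p on have libraries at 0.

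miR-22-3p had the clearest difference between the groups, although it did not pass the test over all miRNAs. In CPF replicates 1 to 11 it stood at 4411, 5134, 5188, 4492, 5189, 4967, 4183, 4639, 5330, 4692 and 5398 RPM. In control replicates 1 to 11 it stood at 3999, 4652, 3889, 3994, 3932, 3320, 6105, 5041, 4164, 4391 and 3264 RPM. All 11 CPF libraries were above the control median of 3999 RPM, and 7 control libraries were below the lowest CPF library. The ranges still overlapped, since control replicate 7 was above every CPF library. These levels rested on 255 to 470 reads in CPF libraries and 209 to 423 reads in control libraries.

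The fold change of miR-22-3p was 1.16 (95% CI 1.03 to 1.31), or 0.21 on the scale of log2(RPM + 1) with SE 0.0836. With limma the unadjusted p was 0.0158 and the Benjamini-Hochberg adjusted p over 273 miRNAs was 0.431. It ranked 10th by p, and 18 of the 273 (6.59%) had an unadjusted p under 0.05. The value depended in part on single control libraries. Control replicate 7, the highest, lowered it, and control replicate 11, the lowest, raised it. Without control replicate 7 the log2 fold change was 0.27, with an unadjusted limma p of 0.000827 and an adjusted p of 0.0744. Without control replicate 11 it was 0.18, with an unadjusted limma p of 0.0370 and an adjusted p of 0.664. Choroid plexus and ependyma miRNAs summed to 2285, 4973 and 8005 RPM in CPF replicates 7, 8 and 9, above the other CPF libraries (635 to 1232 RPM) and the control libraries (580 to 1097 RPM). Without these 3 libraries the log2 fold change of miR-22-3p was 0.23 (limma adjusted p = 0.836). Control replicate 7 had the highest sum of oligodendrocyte miRNAs of all libraries (88761 RPM) and the lowest of neuron miRNAs (55524 RPM). Whether this bears on its level of miR-22-3p was not tested.

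The library codes split each group by their first digit, whose meaning the labels do not give. miR-22-3p averaged 4897 ± 355 RPM in CPF libraries with digit 3 (SD, n = 6) and 4848 ± 511 RPM in those with digit 6 (n = 5). It averaged 4093 ± 316 RPM in control libraries with digit 1 (n = 5) and 4381 ± 1080 RPM in those with digit 4 (n = 6). Each CPF digit was thus above each control digit on average, with log2 fold changes of 0.18 to 0.26 over the 4 pairings and limma adjusted p of 0.439 to 0.844. The 2 highest and the 2 lowest control libraries for miR-22-3p were all of digit 4.

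miR-21-5p did not differ between the groups beyond the spread of the libraries. In CPF replicates 1 to 11 it stood at 2758, 2657, 1743, 2322, 2656, 2193, 3060, 2783, 2320, 2982 and 2848 RPM. In control replicates 1 to 11 it stood at 2408, 2461, 3219, 2531, 2791, 2630, 2396, 2710, 2062, 2662 and 2725 RPM. The medians were 2657 RPM in CPF libraries and 2630 RPM in control libraries, and 7 of 11 CPF libraries were above the control median. CPF replicate 3 was below every control library, and control replicate 3 was above every CPF library. The reads behind these levels numbered 111 to 262 in CPF libraries and 158 to 215 in control libraries. The fold change was 0.985 (95% CI 0.871 to 1.11), or -0.02 on the log2 scale (SE 0.0861, limma adjusted p = 0.972). The sign turned without CPF replicate 3 (log2 fold change 0.03) and also without control replicate 3 (0.0092).

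By code digit, miR-21-5p averaged 2388 ± 385 RPM at digit 3 and 2799 ± 289 RPM at digit 6 in CPF libraries (SD, n = 6 and 5). In control libraries it averaged 2682 ± 334 RPM at digit 1 and 2531 ± 259 RPM at digit 4 (SD, n = 5 and 6). The CPF average was below that of either control digit at digit 3 and above both at digit 6. The difference between the CPF digits was not tested.

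**Figure D2:**
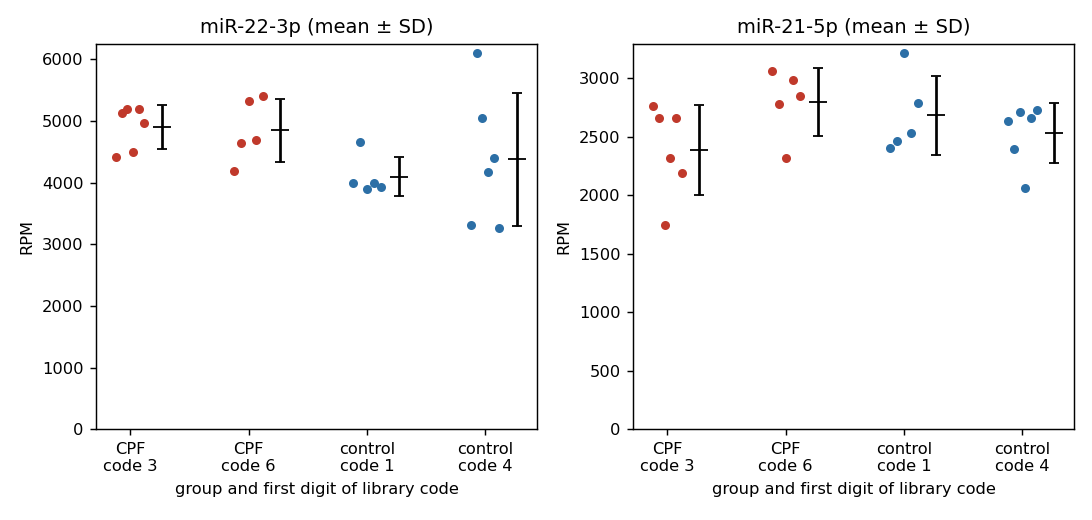
RPM of miR-22-3p and miR-21-5p in each library, by group and by the first digit of the library code, with mean ± SD beside the points. For miR-22-3p both CPF columns average above both control columns, while for miR-21-5p the CPF columns lie on either side of the control columns.

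The other strand of the miR-21 hairpin, miR-21-3p, whose seed differs from that of miR-21-5p, lay between 358 and 695 RPM in CPF libraries, with a median of 520 RPM. In control libraries it lay between 422 and 768 RPM, with a median of 549 RPM. Only 5 of 11 CPF libraries were above the control median, and 2 were below the lowest control library. The log2 fold change was -0.16 (95% CI -0.40 to 0.08, limma adjusted p = 0.806). The 5p arm held 83.5% of the miR-21 reads in CPF libraries and 81.8% in control libraries. Its ratio to the 3p arm ran from 3.34 to 8.33 over CPF libraries, with a median of 5.20, and from 3.20 to 5.70 over control libraries, with a median of 4.79. The ranges of the ratio overlapped, and no test was made of it.

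The NF-kappaB-induced pair showed no difference past the test either. miR-146b-5p lay between 274 and 610 RPM in CPF libraries (median 446 RPM) and between 287 and 527 RPM in control libraries (median 464 RPM). Its log2 fold change was 0.0016 (95% CI -0.28 to 0.28, limma adjusted p = 0.991), the largest p of the 273. miR-146a-5p lay between 80.4 and 216 RPM in CPF libraries (median 150 RPM) and between 59.9 and 213 RPM in control libraries (median 123.7 RPM). Its log2 fold change was 0.15 (95% CI -0.34 to 0.65, limma adjusted p = 0.954). Of the reads with their shared seed, miR-146b-5p held 75.4% in CPF libraries and 76.7% in control libraries. miR-146b-5p was the higher of the pair in all 11 libraries of each group, although its ratio to miR-146a-5p ran from 2.06 to 5.50 in CPF and from 1.69 to 7.75 in control libraries.

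**Figure D3:**
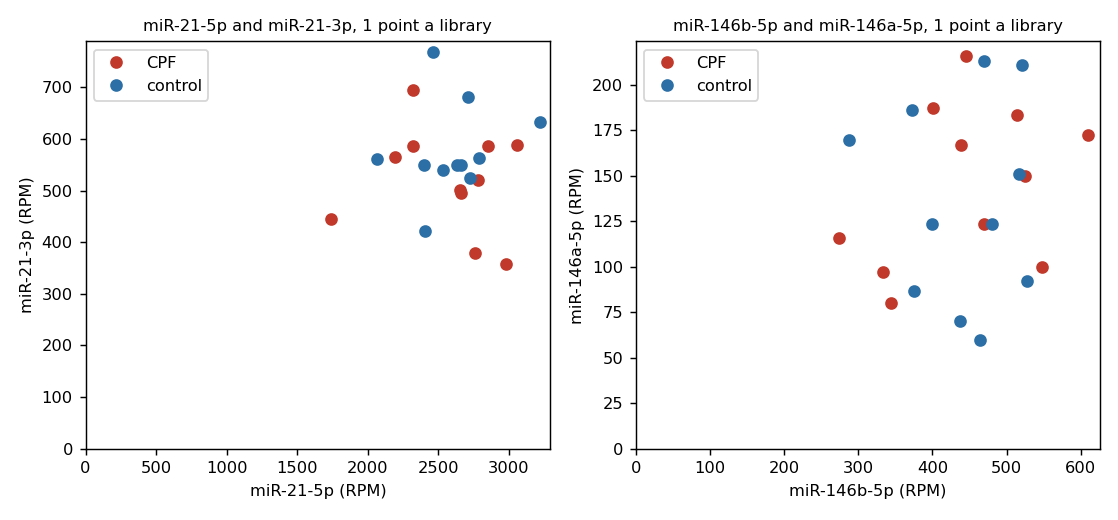
RPM of miR-21-5p against miR-21-3p (left) and of miR-146b-5p against miR-146a-5p (right), 1 point per library, CPF and control in separate colours, axes from 0. CPF and control points are mixed in both panels.

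The miRNAs of white blood cells and microglia were near the limit of the depth. miR-142-5p, the more abundant arm, had at most 6 reads in a CPF library and at most 8 in a control library. It averaged 47.8 ± 19.5 RPM in CPF libraries and 52.0 ± 29.99 RPM in control libraries (SD, n = 11 each). Its log2 fold change was -0.28 (95% CI -1.45 to 0.89, limma adjusted p = 0.954). The estimate was 0.24 without CPF replicate 9, its only library at 0. miR-142-3p averaged under 3 reads in either group, with 20 reads over all CPF libraries and 22 over all control libraries. Pooled over a group these are 24.5 RPM in CPF (exact 95% Poisson interval 15.0 to 37.9) and 28.2 RPM in control (17.7 to 42.7). The 5p arm held 67.2% of the miR-142 reads in CPF libraries and 64.5% in control libraries.

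miR-150-5p, the lymphocyte miRNA, gave 24 reads over all CPF libraries and 25 over all control libraries. This is 29.4 RPM in CPF (exact 95% Poisson interval 18.9 to 43.8) and 32.1 RPM in control (20.8 to 47.3). miR-22-5p, the minor arm of miR-22, gave 5 reads in each group, from 5 CPF and 4 control libraries. Against 3958 reads of miR-22-3p in CPF and 3325 in control, the 3p arm thus held 99.9% and 99.8% of the reads of this hairpin. miR-223-3p, the neutrophil and myeloid miRNA, gave 1 read in CPF replicate 7 and 0 reads in the control libraries. The single CPF read stands for 1.23 RPM (exact 95% Poisson interval 0.0310 to 6.83). The 0 reads among the 779680 control reads have an exact 95% Poisson upper bound of 4.73 RPM, and 3 reads, the limit taken for a count of 0, would be 3.85 RPM. Intervals and limits on pooled reads cover counting error only, since reads without molecular identifiers are not independent molecules. No fold change is given for miR-142-3p, miR-150-5p, miR-22-5p or miR-223-3p, which averaged under 3 reads in either group.

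In all, 8 of the 10 names had at least 10 RPM in at least 11 libraries and were tested, and miR-22-5p and miR-223-3p were not. With limma and adjustment over all miRNAs, 0 of the 8 passed, against 2 of 273 (0.733%) for all miRNAs tested. At an unadjusted p under 0.05 there was 1 of 8, miR-22-3p, against 18 of 273 (6.59%), or 13 of 273 (4.76%) higher in CPF. On recovered reads edgeR and DESeq2 also called 0 of the names they tested. Of the 6 tested names that averaged at least 3 reads in a group, 3 had a log2 fold change above 0 and 3 below, with a median of -0.01, beside a median of 0.02 for all 273. The RPM ranges of CPF and control overlapped for all 8, as they did for all 273 miRNAs tested (0% without overlap).

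**Figure D4:**
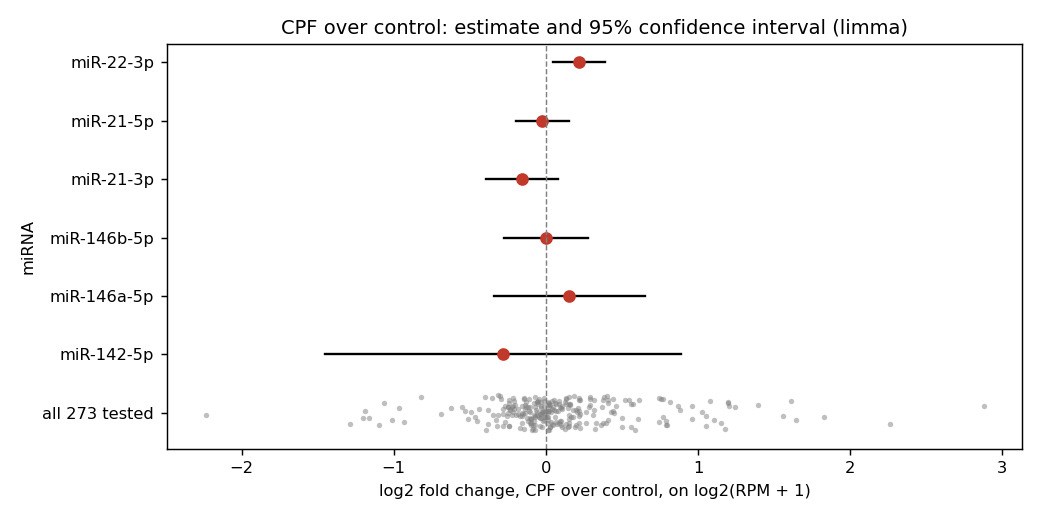
Log2 fold change of CPF over control with its 95% confidence interval from limma for the 6 names averaging at least 3 reads in a group, and the estimates of all 273 tested miRNAs in grey at the bottom. Only the interval of miR-22-3p, before any adjustment, lies wholly above 0, and the intervals widen from the abundant to the rare names.

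Among the names with reads in every library, how far they varied between libraries followed their level. The other tested names had libraries at 0 and are left out of this statement. The SD of log2(RPM + 1) around the group means was 0.202 for miR-22-3p and 0.203 for miR-21-5p, 0.256 for miR-21-3p, 0.310 for miR-146b-5p and 0.552 for miR-146a-5p. The median over all 273 was 0.557. Counting error alone would give about 0.0811 for miR-22-3p, 0.108 for miR-21-5p, 0.234 for miR-21-3p, 0.262 for miR-146b-5p and 0.488 for miR-146a-5p. By this SD, the 3 rarer of these names exceeded counting error by less than miR-22-3p and miR-21-5p did. The variance of the reads of miR-22-3p, divided by that from counting, was 2.63 in CPF and 10.6 in control libraries. For miR-21-5p this quotient was 4.28 in CPF and 2.12 in control libraries. Among the 3 rarer names it ran from 0.942 (miR-146b-5p in control libraries) to 1.87 (miR-146b-5p in CPF libraries). The highest of these was not far below the 2.12 of miR-21-5p in control libraries. The difference in spread between the groups was not tested.

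**Figure D5:**
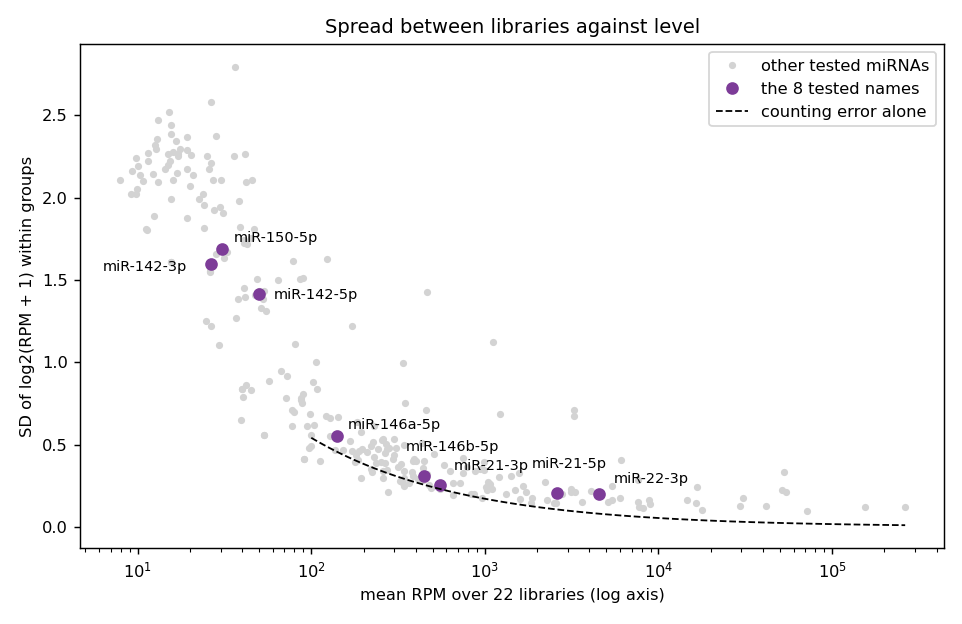
SD of log2(RPM + 1) within groups against mean RPM (log axis) for the 273 tested miRNAs, with the 8 tested names in colour and a dashed line for the SD that counting reads alone would give. miR-22-3p (0.202) and miR-21-5p (0.203) lie above the line, and miR-21-3p (0.256) and miR-146b-5p (0.310) lie close to it.

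To find which miRNAs moved most like the 2 abundant names from library to library, the log2(RPM + 1) values were taken around their group means over 22 libraries and compared with 263 other miRNAs by Pearson's r, as a description. miR-22-3p was most like miR-99b-5p (r = 0.65), miR-28-5p (r = 0.64) and miR-3553 (r = 0.62). miR-21-5p was most like miR-338-5p (r = 0.67), miR-93-5p (r = 0.60) and miR-219-2-3p (r = 0.60). miR-338 and miR-219 are known as oligodendrocyte miRNAs. The top of 263 coefficients over so few libraries is high by choice, and all names of a library share its depth and total. Between the arms of the miR-21 hairpin r was -0.01, which places miR-21-3p 120th of 263 for miR-21-5p.

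Other miRNAs linked to NF-kappaB, Toll-like receptor, microglia or astrocyte signalling were listed by number outside the 10 names. As the list was made with earlier results of these data known, its calls are a description only. Some of its names may stand for 1 miRNA, such as miR-24 and miR-24-3p (7758 and 7575 RPM over all libraries). Of 39 tested, 1 was higher in CPF libraries, 0 were lower and 38 did not pass, beside 2, 0 and 271 of all 273. The 39 had a median log2 fold change of 0.02. The 1 that rose was miR-132-3p, an activity-induced miRNA that targets the acetylcholinesterase transcript, at 1292 RPM in CPF libraries and 698 RPM in control libraries (log2 fold change 0.87, limma adjusted p = 0.00131). The 2 most abundant were miR-27b-3p (log2 fold change 0.02, limma adjusted p = 0.972) and the neural miR-9a-5p (-0.04, limma adjusted p = 0.954).

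Markers of other cell types were summed per library as RPM. Neuron miRNAs, led by miR-9a-5p at 50852 RPM in CPF and 52435 RPM in control libraries, summed to between 57186 and 80179 RPM in CPF and between 55524 and 80432 RPM in control libraries. The 2 oligodendrocyte names matched, both of miR-338, summed to between 32544 and 80333 RPM in CPF and between 45770 and 88761 RPM in control libraries, with miR-338-3p the higher. Vessel wall and endothelium miRNAs, led by miR-143-3p, summed to between 221899 and 313979 RPM in CPF and between 222411 and 284493 RPM in control libraries. Erythrocyte miRNAs, led by miR-144-5p, summed to at most 79.5 RPM in CPF and 65.9 RPM in control libraries. Choroid plexus and ependyma miRNAs, led by miR-1298, had a median of 1156 RPM in CPF libraries and 817 RPM in control libraries, with the 3 high CPF libraries named above. None of the lists had a name at 0 in every library. The lists are not exclusive. Names of miR-9a and miR-124 in the neuron list and of miR-199a in the vessel list were also among the other signalling miRNAs above. The part of any of these cells in the levels of the 10 names was not tested.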

How the data were processed

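The members and lists were chosen with earlier results of these data known. The authors deposited 1 value per miRNA name and library as RPM, per the file headers, each library's miRNA reads being scaled to one total. Per the labels' protocols, an Illumina HiScanSQ read TruSeq small RNA libraries. Partek 6.6, Bowtie, cutadapt 1.2, CASAVA 1.8.2 and the build rn4 appear, without roles, per the submitters' processing notes. How reads matching several miRNAs were counted is not given in the sources used here. Rows that share a name were summed (13 names, none of them among the 10 described). The file of control replicate 2 ends 36 names early, and these were left missing. None of the 10 is affected. A read was taken as the most common low value of a library, refined on its multiples. By this, 92.8 to 97.4% of a library's values were whole reads within 0.02 RPM, giving 47844 to 94980 reads per library.

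As the values are RPM, limma 3.58.1 with a trend (R 4.3.3) was fitted to log2(RPM + 1), two-sided, for the 273 names that reached 10 RPM in 11 or more libraries. P-values were adjusted by Benjamini-Hochberg over all of these, with a threshold of 0.05. edgeR 4.0.16 and DESeq2 1.42.0 on recovered reads, rounded to whole numbers, over the 432 names held by all libraries, were alternatives. The code was tested on simulated tables. Every pair of libraries differed by more than counting error (chi-square per degree of freedom at least 2.42). The text names all 10 members, per library for miR-21-5p and miR-22-3p, the 3 miRNAs most like each of these, the 2 most abundant of the list of other signalling miRNAs with any that passed, and the most abundant of each marker list. By the letters fixed for the oligodendrocyte list, names of miR-219 without a letter were left out.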

Additional observations from a re-analysis of the deposited data

How the results depend on the processing

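Of the 10 names, 0 were called under any of the 38 alternatives run (22 that leave out a single library and 16 others). The log2 fold change of miR-22-3p stayed above 0 in all 38, at 0.18 to 0.27 without a single library (limma adjusted p 0.0744 to 0.698) and 0.18 to 0.26 in the others (adjusted p 0.292 to 0.991). miR-146a-5p, at 0.05 to 0.23 and 0.08 to 0.18, and miR-21-3p, at -0.20 to -0.11 and -0.21 to -0.13, also kept their direction in all 38.

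The estimates of miR-21-5p, miR-146b-5p and miR-142-5p changed sign in some alternatives. miR-21-5p ran from -0.055 to 0.032 without a single library, and stood at 0.020 with edgeR (TMM), 0.15 for code digits 6 (CPF) and 4 (control) and 0.063 for 6 and 1. miR-146b-5p ran from -0.058 to 0.068, and stood at -0.0012 with edgeR (RLE), -0.011 with edgeR (TMM) and no filter, -0.036 for digits 3 and 1 and -0.016 for 3 and 4. miR-142-5p, which gave a value in 36 alternatives, ran from -0.45 to 0.24, and stood at 0.24 without CPF replicates 7, 8 and 9 together, 0.32 for digits 3 and 1 and 0.10 for 3 and 4, against -0.96 for digits 6 and 4 and -0.74 for 6 and 1. The cause was not tested. Over all miRNAs, 2 were called in the analysis reported, 4 with edgeR (TMM), 4 with edgeR (RLE), 5 with DESeq2, 1 in each of the 4 pairings of code digits, which use fewer libraries, and 2 to 3 without a single library. With the replicate block 2 miRNAs and 0 of the 10 names were called (miR-22-3p adjusted p = 0.588). Same-numbered libraries did not deviate together (r -0.11 to 0.13, over 0.1 in 2 of 11 pairs), so the numbers are not taken as pairs. The summed share of the 10 names was higher in CPF by 0.0551 percentage points, and the difference was -0.00741 without miR-22-3p. At 10.5 to 20.9 RPM per read, differences in miR-142, miR-150 and miR-223 were not detectable unless large.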
